A study of Mus musculus with 8 samples.

Results

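Of the 45101 probe sets on each of 8 Affymetrix mouse arrays, 22 were annotated to 1 of 10 genes of blood vessel growth and endothelium and to no other gene. The genes, chosen by name, were Vegfa, Kdr, Flt1, Pecam1, Cdh5, Tek, Angpt2, Eng, Nrp1 and Ang, and each had 1 to 4 probe sets. The arrays measured polyadenylated RNA of mature (MII) oocytes (1 KO and 1 WT array), blastocysts (2 KO and 2 WT arrays) and embryo tissue from the implantation site (1 KO and 1 WT array). KO stands for depletion of connexin 43, a gap junction protein encoded by Gja1, and the study's title says that the depletion was directed to the oocyte. WT stands for wild type. The design text sets KO beside WT at each of the 3 stages. The driver of the depletion, the strain, the age of the mice, the number of embryos pooled on an array and the genotype of the uterus around an implantation site were not given in the sources used here. Nothing in the labels says that the replicate blastocyst arrays came from separate animals, so the spread behind each p-value may be technical.

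Blood vessels are lined by endothelial cells. VEGF-A, the product of Vegfa, is the main growth signal of these cells: it binds the receptors VEGFR2 (Kdr) and VEGFR1 (Flt1), with neuropilin 1 (Nrp1) as a co-receptor, while angiopoietins act through the receptor TIE2 (Tek). In the mouse, the uterine stroma around an implanting embryo turns into decidua and grows a dense vascular bed before the placenta forms. MII oocytes and blastocysts contain no blood vessels.

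The promoters of the 4 members with a probe set that passed a test between stages are shown first, since the results return to these genes. They run from 250 bases before to 50 bases after a start site listed for the gene, in the gene's direction. They come from RefSeq for the assembly GRCm38.p6. The start site need not be the outer end of the gene: the Nrp1 and Flt1 sequences lie inside the gene coordinates given below. Capitals mark GGAA or its reverse complement TTCC, the core of the site that ETS transcription factors bind, a family with several endothelial members.
Nrp1, chr8:128358823-128359122, plus strand: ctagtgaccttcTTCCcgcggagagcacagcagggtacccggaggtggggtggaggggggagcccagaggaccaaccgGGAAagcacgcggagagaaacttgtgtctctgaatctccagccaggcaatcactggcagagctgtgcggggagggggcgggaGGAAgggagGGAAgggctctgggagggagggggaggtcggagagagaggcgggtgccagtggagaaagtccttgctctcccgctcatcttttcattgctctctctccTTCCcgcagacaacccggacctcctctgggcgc
Flt1, chr5:147725962-147726261, minus strand: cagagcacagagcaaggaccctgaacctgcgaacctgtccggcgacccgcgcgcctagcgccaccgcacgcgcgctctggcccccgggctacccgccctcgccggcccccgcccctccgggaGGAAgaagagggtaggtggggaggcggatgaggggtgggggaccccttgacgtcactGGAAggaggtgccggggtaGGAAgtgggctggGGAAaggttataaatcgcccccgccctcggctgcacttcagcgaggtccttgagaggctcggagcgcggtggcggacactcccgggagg
Vegfa, chr17:46032328-46032627, minus strand: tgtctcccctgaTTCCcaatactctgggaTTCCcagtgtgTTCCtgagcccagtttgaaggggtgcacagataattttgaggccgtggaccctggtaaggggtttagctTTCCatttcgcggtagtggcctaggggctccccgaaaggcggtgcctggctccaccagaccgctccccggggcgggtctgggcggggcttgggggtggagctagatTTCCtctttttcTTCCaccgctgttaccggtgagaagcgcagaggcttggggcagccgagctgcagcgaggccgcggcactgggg
Ang, chr14:51090827-51091126, plus strand: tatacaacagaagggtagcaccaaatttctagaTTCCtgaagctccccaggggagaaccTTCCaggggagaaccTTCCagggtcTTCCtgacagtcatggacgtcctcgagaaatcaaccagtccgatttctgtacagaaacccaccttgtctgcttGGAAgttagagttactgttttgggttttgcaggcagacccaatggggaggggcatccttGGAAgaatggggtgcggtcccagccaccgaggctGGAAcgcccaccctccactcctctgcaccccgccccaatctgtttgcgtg
GGAA or TTCC occurred 5 times in the Nrp1, 4 in the Flt1, 6 in the Vegfa and 7 in the Ang promoter, against a median of 3 over the 32851 promoters of the table, of which 96.0% hold it at least once. The promoters of 7 members are in the table, Vegfa with 2. In those not shown the count was 5 in Kdr, 4 in Eng, 2 in Tek and 3 in the other Vegfa promoter. The longer form AGGAAG, which contains GGAA, was found on either strand in Ang, Eng, Flt1 and Nrp1 and in 35.4% of all promoters. ACGTG, the core of the hypoxia-inducible factor site, was found in the other Vegfa promoter of the table and in 19.6% of all promoters. The GATA form AGATAA was found in Tek and in the Vegfa promoter shown (11.2% of all promoters) and the TATA box letters TATAAA in Flt1 (13.6%). These matches describe the letters only.

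The values are MAS5 signals on a linear scale, with each array scaled to the same 2% trimmed mean of 500. No detection calls were used, so the brightest of 27 Bacillus control probe sets on an array served as its control level. It was 588 on the KO and 171 on the WT oocyte array, 535 and 559.7 on the KO and 322 and 345 on the WT blastocyst arrays, and 131 on the KO and 174 on the WT implantation site array. A gene thus needs more signal to pass it on the KO than on the WT arrays of oocytes and blastocysts. Gja1 read 375 and 553 on the KO blastocyst arrays, 9835 in WT replicate 1 and 574 on the array labelled WT replicate 2. That last array is close to the KO arrays for the targeted gene, and blastocyst results are therefore also given without it. Gja1 reached 28105 at the KO and 44493 at the WT implantation site. Markers of oocytes (7 and 9 of 10 above control level on the KO and WT oocyte arrays) and of blastocysts (9 to 10 of 10 on the 4 blastocyst arrays) matched those labels. The implantation site arrays carried 9 (KO) and 10 (WT) of 10 markers of decidua and uterine stroma, 9 (KO) and 8 (WT) of 12 leukocyte markers, and 4 (KO) and 5 (WT) of 10 blastocyst markers. The decidual markers summed to 78529 (KO) and 65737 (WT) there and the blastocyst markers to 5246 (KO) and 3389 (WT). How much of this RNA came from the uterus and how much from the embryo was not tested. Of the same decidual markers, 2 (KO) and 7 (WT) were above control level on the oocyte arrays, and 1 to 4 on the blastocyst arrays.

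By the brightest control, the members were mostly at control level in blastocysts and above it at the implantation site. On the KO and WT oocyte arrays 4 and 10 of the 22 probe sets were above the brightest control. On the blastocyst arrays the count was 0 and 2 in the KO and 0 and 2 in the WT, and at the implantation site 17 in the KO and 17 in the WT. Among all probe sets annotated to 1 gene the share above control was 23.7% and 49.7% on the KO and WT oocyte arrays, 27.7% and 26.3% on the KO and 35.6% and 37.9% on the WT blastocyst arrays, and 54.0% on both implantation site arrays. The members' shares were 0% to 9.09% in blastocysts and 77.3% on both implantation site arrays, below and above the share of all probe sets on those arrays. On the KO and WT oocyte arrays they were 18.2% and 45.5%, near the share of all probe sets there. With the control level set to 2 times the median control, an alternative added after the data were seen, the counts were 11 and 14 in KO and WT oocytes, 13 and 8 in KO and 10 and 16 in WT blastocysts, and 18 and 20 in the KO and WT implantation sites, so the low count in blastocysts depends on the control level used. No probe set was above the brightest control on all 8 arrays, and 3 were above it on none. In whole tissue, fewer cells of a type and less RNA per cell cannot be told apart.

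**Figure D1:**
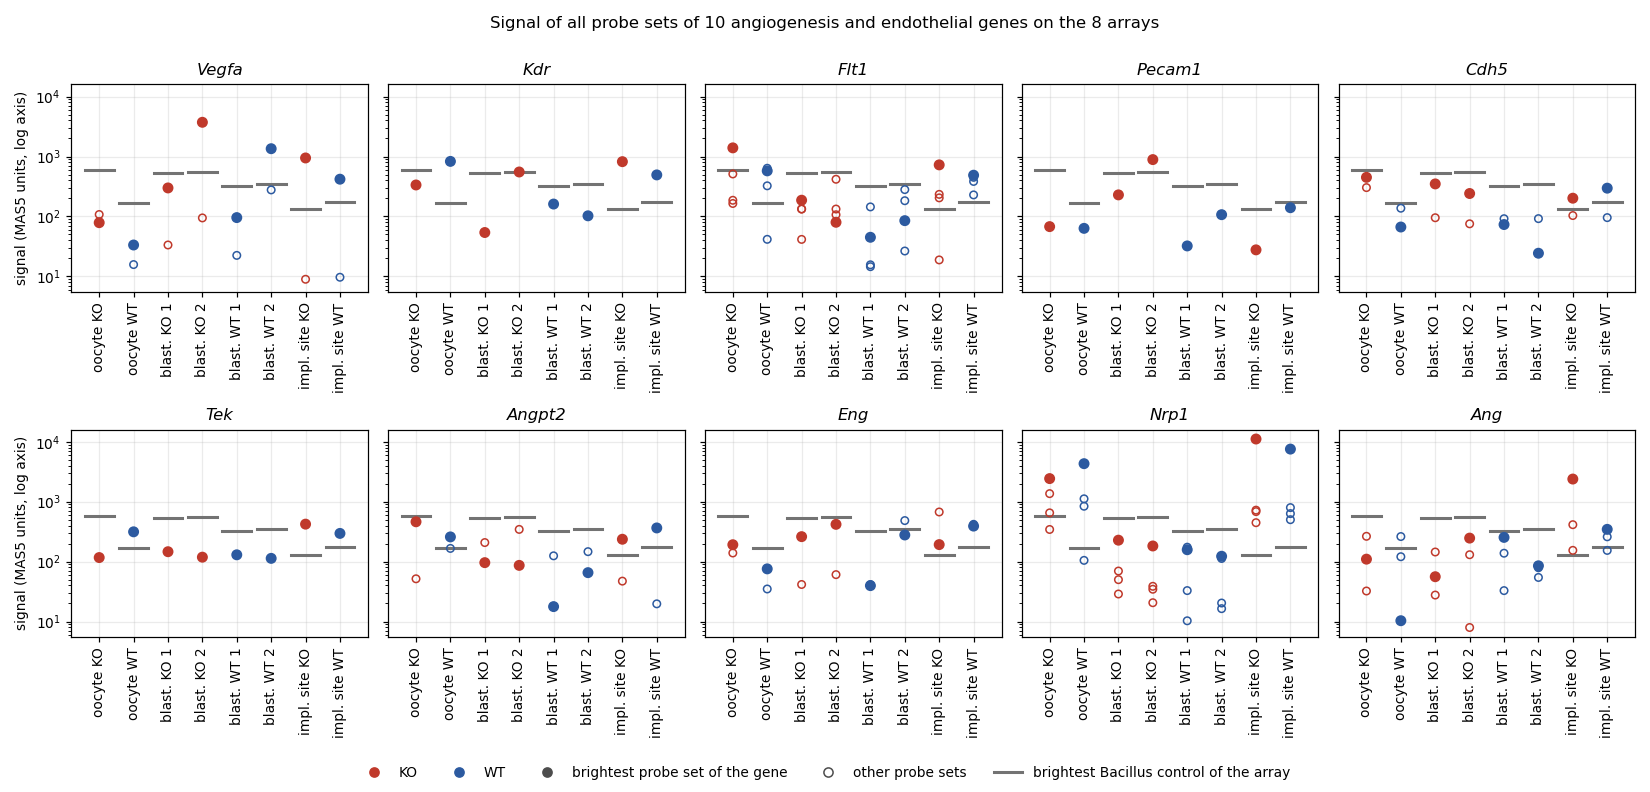
Signal of all 22 probe sets on the 8 arrays (log axis), 1 panel per gene. KO is red and WT blue, filled points are the probe set with the highest mean, and grey lines mark the brightest Bacillus control of each array. The brightest Nrp1 probe set lies above the line on the oocyte and implantation site arrays, at 7551 or more at the implantation site, and below it on the 4 blastocyst arrays.

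For the tests, probe sets in the upper 50% by mean signal over the 8 arrays were kept (a mean of at least 151), which left 19040 probe sets in all. Of the members 9 probe sets of 7 genes were kept, and 13 probe sets, among them all those of Pecam1, Cdh5 and Angpt2, were not. A probe set that is high at 1 stage can be kept for that reason, so the 9 do not stand for all 22. Between the implantation site and the blastocyst 3 of the 9 rose (a pair of Nrp1 probe sets and 1 of Flt1) and 0 fell, beside 32.2% of all probe sets called, 13.8% higher and 18.4% lower. Between the implantation site and the oocyte 3 rose (Nrp1, Ang, Vegfa) and 0 fell, beside 35.4% called, 19.9% higher and 15.5% lower. Between the blastocyst and the oocyte 1 rose (Vegfa) and 3 fell (the pair of Nrp1 probe sets and Flt1), beside 43.5% called, 26% higher and 17.5% lower. The total shares of members called lie near these backgrounds. The 3 comparisons share arrays and 1 estimate of the spread. Without the KO implantation site array 1 member was called between the implantation site and the blastocyst and 0 between the implantation site and the oocyte, and the second count was 1 without either oocyte array. Without the array labelled WT replicate 2 the 3 counts were again 3, 3 and 4.

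**Figure D2:**
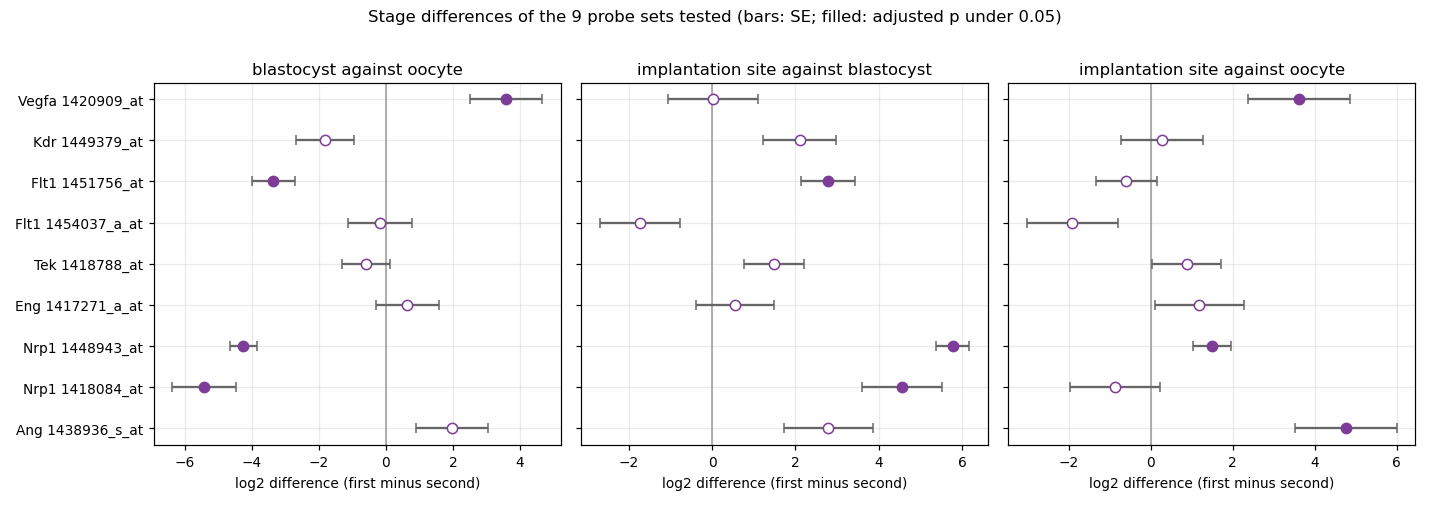
Log2 differences between stages for the 9 tested probe sets, with their standard errors. Filled points passed at an adjusted p under 0.05 (limma, 8 arrays). The pair of Nrp1 probe sets has the same form in both comparisons with blastocysts, 5.77 and 4.55 higher at the implantation site than in blastocysts and -4.26 and -5.42 between blastocysts and oocytes.

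Vegfa (gene identifier 22339, chromosome 17, 46016993 to 46032377 of GRCm38.p6) encodes the ligand. Its brighter probe set, 1420909_at, read 78.6 on the KO and 33.3 on the WT oocyte array, 299 and 3726 in KO and 95.6 and 1350.1 in WT blastocysts, and 946 on the KO and 418 on the WT implantation site array. Both oocyte arrays were at control level, both implantation site arrays were above it, and 1 KO and 1 WT blastocyst array (KO replicate 2 and the array labelled WT replicate 2) were far above their partners. Vegfa was at least 1.99-fold higher at the implantation site than in oocytes, measured against the brightest control (log2 difference of the signals 3.62, SE 1.25, adjusted p = 0.0416), and at least 1.94-fold higher in blastocysts than in oocytes (3.59, SE 1.08, adjusted p = 0.0187). The first call was lost without any 1 of the oocyte and implantation site arrays (adjusted p 0.137 to 0.158), with a pseudocount of 50 (0.0549) and in limma without the trend (0.0865), and the second without the KO oocyte array (0.114), the WT oocyte array (0.109) or blastocyst KO replicate 2 (0.0517). Leaving out 1 array, an alternative for the bounds that was added after the data were seen, moved the first bound to between 1.07 and 3.68 and the second to between 1.05 and 3.62. Between the implantation site and the blastocyst the difference was 0.03 (SE 1.08, adjusted p = 0.986). The other probe set, 1451959_a_at, was at control level on all 8 arrays, with 8.93 in the KO and 9.65 in the WT implantation site.

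Nrp1 (18186, chromosome 8, 128358591 to 128505476) encodes neuropilin 1, which binds both VEGF-A and class 3 semaphorins, guidance cues of axons and vessels. Probe set 1448943_at read 2430.5 on the KO and 4312 on the WT oocyte array, 228 and 182 in KO and 158 and 123 in WT blastocysts, and 11125 on the KO and 7551 on the WT implantation site array. The 3 stages did not overlap: every blastocyst array was at control level, and both implantation site arrays were above both oocyte arrays. The signal was at least 21.5-fold higher at the implantation site than in blastocysts (5.77, SE 0.40, adjusted p = 4.80e-06) and at least 7.58-fold lower in blastocysts than in oocytes (log2 -4.26, SE 0.40, adjusted p = 9.61e-06). Both calls stood under all 16 alternatives tried. At the implantation site it was 2.83-fold higher than in oocytes (1.50, SE 0.46, adjusted p = 0.0260). That call was lost without the KO oocyte array (0.81, adjusted p = 0.255), the KO implantation site array (1.27, adjusted p = 0.187) or the WT implantation site array (1.74, adjusted p = 0.0640), and in limma without the trend (adjusted p = 0.0627).

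The other Nrp1 probe sets were lower in blastocysts than at the implantation site. Of these, 1418084_at and 1448944_at were also lower in blastocysts than in oocytes, while the blastocyst and oocyte values of 1457198_at overlapped. Probe set 1418084_at read 1363 on the KO and 1117 on the WT oocyte array, 28.8 and 20.6 in KO and 10.3 and 113 in WT blastocysts, and 722 on the KO and 633 on the WT implantation site array. All blastocyst arrays were at control level and below all others. The implantation site was at least 1.58-fold above blastocysts (4.55, SE 0.96, adjusted p = 0.00434; 4.34 and adjusted p = 0.0696 without the KO implantation site array), and blastocysts were at least 2.89-fold below oocytes (-5.42, SE 0.96, adjusted p = 7.71e-04). The implantation site did not differ from oocytes past the threshold (-0.87, SE 1.11, adjusted p = 0.580), unlike the higher signal of 1448943_at. Of the remaining probe sets, which were not kept by the filter, 1448944_at read 651 on the KO and 839.6 on the WT oocyte array, 49.9 and 34.6 in KO and 32.8 and 20.3 in WT blastocysts, and 446 on the KO and 501 on the WT implantation site array. Its blastocyst values were again below all others. Probe set 1457198_at read 344 on the KO and 105 on the WT oocyte array, 69.6 and 38.7 in KO and 174 and 16.4 in WT blastocysts, and 683 on the KO and 796 on the WT implantation site array, where alone both arrays were above control level. In a fit without the filter both were higher at the implantation site than in blastocysts (adjusted p = 0.00376 and 0.0132). That fit called 5 of the 22 member probe sets higher and 0 lower, beside 21.1% of 34945 probe sets called, 8.75% higher and 12.3% lower.

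Flt1 (14254, chromosome 5, 147561604 to 147726438) encodes VEGFR1, which binds VEGF-A tightly, signals weakly and is also made as a soluble form that traps the ligand. Probe set 1451756_at read 1394 on the KO and 576 on the WT oocyte array, 186 and 79.8 in KO and 44.9 and 85.0 in WT blastocysts, and 725 on the KO and 488 on the WT implantation site array. All 4 blastocyst arrays were at control level and below the other 4 arrays. Flt1 was at least 1.39-fold higher at the implantation site than in blastocysts (2.78, SE 0.64, adjusted p = 0.00720) and at least 2.10-fold lower in blastocysts than in oocytes (-3.37, SE 0.64, adjusted p = 0.00128). The first call was lost without the KO (adjusted p = 0.0563) or the WT (adjusted p = 0.0645) implantation site array, and the second stood under all 15 alternatives, with a bound of 1.35 without the KO and 3.26 without the WT oocyte array.

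The 4 Flt1 probe sets did not share 1 pattern. Probe set 1440926_at read 511 on the KO and 637 on the WT oocyte array, 133 and 107 in KO and 14.5 and 26.5 in WT blastocysts, and 233 on the KO and 449 on the WT implantation site array. It too was lowest in blastocysts (adjusted p = 0.0107 against oocytes without the filter, a fit that called 1 of the 22 member probe sets higher and 6 lower, beside 24.7% of all, 13.9% higher and 10.8% lower). Probe set 1419300_at read 164 on the KO and 41.5 on the WT oocyte array, 41.3 and 133 in KO and 15.6 and 183 in WT blastocysts, and 204 on the KO and 384 on the WT implantation site array, above control level only on the implantation site arrays. Probe set 1454037_a_at read 186 on the KO and 324 on the WT oocyte array, 133 and 417 in KO and 144 and 280.3 in WT blastocysts, and 18.8 on the KO and 229 on the WT implantation site array. It did not differ past the threshold between the implantation site and the blastocyst (-1.73, SE 0.96, adjusted p = 0.191), but was called lower without the WT implantation site array (-3.47, adjusted p = 0.0420), and so was its difference from oocytes (-3.65, adjusted p = 0.0440, against -1.91 and adjusted p = 0.209 with all arrays). The suffix in its name marks probes that match several transcripts of the gene, and which transcripts each probe set reads was not given in the sources used here.

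Kdr (16542, chromosome 5, 75932827 to 75979072) encodes VEGFR2, the receptor that carries most of the growth signal of VEGF-A. Its single probe set read 335 on the KO and 829 on the WT oocyte array, 53.9 and 552 in KO and 161 and 102 in WT blastocysts, and 820.4 on the KO and 493 on the WT implantation site array. Both implantation site arrays and the WT oocyte array were above control level, and blastocyst KO replicate 2, just below it, overlapped them. Kdr was 2.10 higher on the log2 scale at the implantation site than in blastocysts, which did not pass (SE 0.87, adjusted p = 0.0849). It passed with a common median (2.46, adjusted p = 0.0388) and without blastocyst KO replicate 2 (2.84, adjusted p = 0.0169). Without that array the difference between blastocysts and oocytes passed too (-2.57, adjusted p = 0.0172), which otherwise was -1.83 (SE 0.87, adjusted p = 0.112). Measured by Pearson correlation of log2 signal over the 8 arrays, the genes most like Kdr among 11745 were Ncoa1 (r = 0.96), Tnfaip6 (0.91), Zbtb1 (0.91), Casp8 (0.90) and Zxdb (0.90). The arrays share stages and control levels, so these values describe the pattern only.

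Tek (21687, chromosome 4, 94739086 to 94874976) encodes TIE2, the angiopoietin receptor of endothelial cells. It read 117 on the KO and 314 on the WT oocyte array, 146 and 119 in KO and 129.8 and 113 in WT blastocysts, and 422 on the KO and 296 on the WT implantation site array. The blastocyst values lay close together below both implantation site arrays, at control level on their own arrays, and the stage difference did not pass (1.48, SE 0.72, adjusted p = 0.139). Angpt2 (11601, chromosome 8, 18690263 to 18741562) encodes angiopoietin 2, a ligand of TIE2 that can block it and loosens vessel walls. Its probe set 1448831_at read 462 on the KO and 258 on the WT oocyte array, 96.1 and 86.5 in KO and 17.7 and 65.4 in WT blastocysts, and 236 on the KO and 365 on the WT implantation site array. It was again lowest in blastocysts, and in a fit without the filter blastocysts were lower than oocytes (adjusted p = 0.0441), while the implantation site did not pass against blastocysts (adjusted p = 0.0720). Its other probe set, 1459636_at, ran the other way, with 51.6 in the KO and 166 in the WT oocyte array, 208 and 345 in KO and 125 and 147 in WT blastocysts, and 47.2 on the KO and 19.7 on the WT implantation site array, all at control level.

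Eng (13805, chromosome 2, 32646595 to 32682669) encodes endoglin, a co-receptor for TGF beta and bone morphogenetic proteins on endothelial cells. Probe set 1417271_a_at read 191 on the KO and 75.6 on the WT oocyte array, 261 and 419 in KO and 39.7 and 278 in WT blastocysts, and 192 on the KO and 391 on the WT implantation site array. The stages overlapped, and the implantation site was above blastocysts by 0.56 (SE 0.94, adjusted p = 0.679). Probe set 1432176_a_at read 139 on the KO and 34.9 on the WT oocyte array, 41.5 and 60.6 in KO and 41.3 and 484 in WT blastocysts, and 673 on the KO and 419 on the WT implantation site array. Apart from the array labelled WT replicate 2, its blastocyst values were below those of the implantation site.

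Pecam1 and Cdh5 encode proteins of the contacts between endothelial cells, PECAM-1 (CD31) and VE-cadherin. Pecam1 (18613, chromosome 11, 106654213 to 106715281) read 67.6 on the KO and 63.2 on the WT oocyte array, 229 and 888 in KO and 32.2 and 107 in WT blastocysts, and 27.7 on the KO and 139.8 on the WT implantation site array. It was above control level on a single array, blastocyst KO replicate 2, and so did not mark the implantation site. Cdh5 (12562, chromosome 8, 104101613 to 104144504) read 449 on the KO and 66.5 on the WT oocyte array, 349 and 241 in KO and 73.2 and 24.3 in WT blastocysts, and 201 on the KO and 296 on the WT implantation site array with probe set 1433956_at. Only the implantation site arrays were above their own control level. The other Cdh5 probe set was at control level on all arrays, between 75.3 and 303. By the same measure of likeness as for Kdr, over 11746 genes, the genes most like Cdh5 were the transporters Slc25a47 (r = 0.97), Slc25a45 (0.95) and Slc23a1 (0.94), with Pdxk (0.93) and Pcdhb7 (0.93). Cdh5, like the first of these, was highest on the KO oocyte array, the array with the brightest controls, and the part of that control level in the pattern was not tested.

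Ang (11727, chromosome 14, 51091077 to 51102009) encodes angiogenin, a secreted ribonuclease that promotes vessel growth. Probe set 1438936_s_at read 110 on the KO and 10.3 on the WT oocyte array, 55.9 and 247 in KO and 254 and 85.1 in WT blastocysts, and 2388 on the KO and 345 on the WT implantation site array. Both implantation site arrays were above all others, and the remaining arrays were at control level. The implantation site was at least 2.87-fold above oocytes (4.75, SE 1.24, adjusted p = 0.0114), and the call was lost without the WT oocyte array (3.40, adjusted p = 0.102) or the KO implantation site array (3.82, adjusted p = 0.144). The bound was 1.09 without the KO and 7.54 without the WT implantation site array, and 5.32 without the KO and 1.55 without the WT oocyte array. Against blastocysts the difference was 2.79 and did not pass (SE 1.08, adjusted p = 0.0676). It passed without the WT oocyte array (adjusted p = 0.0449), without blastocyst WT replicate 1 (3.45, adjusted p = 0.0320), with a common median (3.15, adjusted p = 0.0335) and with a pseudocount of 50 (2.37, adjusted p = 0.0184). Blastocysts lay 1.96 above oocytes (SE 1.08, adjusted p = 0.165), past the threshold without blastocyst KO replicate 1 (2.74, adjusted p = 0.0433). Ang belongs to a family of near-identical ribonuclease genes, and the suffix of this probe set marks probes that can match more than 1 transcript, so its signal cannot be assigned to Ang with certainty.

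The 2 other Ang probe sets showed less. Probe set 1438937_x_at read 264 on the KO and 121 on the WT oocyte array, 27.6 and 7.94 in KO and 138 and 54.4 in WT blastocysts, and 413 on the KO and 259 on the WT implantation site array. Probe set 1450717_at read 32.3 on the KO and 262 on the WT oocyte array, 145 and 130.2 in KO and 32.8 and 78.9 in WT blastocysts, and 154 on the KO and 154 on the WT implantation site array. Only the first of these was above control level on both implantation site arrays. The family member Rnase4, whose locus lies beside and partly shares promoters with Ang in the mouse, read 80.8 on the KO and 166 on the WT oocyte array, 341 and 838 in KO and 216 and 362 in WT blastocysts, and 7152 on the KO and 6509 on the WT implantation site array, 4.14 higher than in blastocysts (SE 0.56, adjusted p = 3.01e-04). Ang2, another angiogenin-like ribonuclease and not angiopoietin 2, ran the opposite way, with 10.8 in the KO and 25.3 in the WT implantation site and 1129.96 and 4109 in KO and 146 and 255 in WT blastocysts (-5.28, SE 1.07, adjusted p = 0.00358).

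In blastocysts, the stage with replicates, none of the 9 tested probe sets passed between KO and WT. Limma called 0 members, beside 0.0315% of all probe sets (6 of 19040), and at an unadjusted p under 0.05 there were 0 members beside 14.9% of all probe sets. Without the array labelled WT replicate 2 there were 2 at an unadjusted p under 0.05 (Eng and Vegfa), beside 22% of all probe sets, and again 0 after adjustment. In the fit over all 8 arrays with stage as a term, 0 members were called beside 0% of all probe sets, and at an unadjusted p under 0.05 there were 0 members beside 6.79%. The sizes were nevertheless wide in blastocysts: Eng 1417271_a_at was 1.65 higher in the KO (SE 0.98, adjusted p = 0.456), Vegfa 1.55 (SE 1.37, adjusted p = 0.613) and Flt1 1451756_at 0.98 (SE 1.01, adjusted p = 0.668). The KO and WT values of Eng and Vegfa overlapped through the array labelled WT replicate 2. Without that array Eng was 3.06 higher in the KO (adjusted p = 0.112) and Vegfa 3.46 (adjusted p = 0.211), and without blastocyst WT replicate 1 they were 0.25 and -0.36, so 1 WT array decides both values. Each of these fits sets 2 KO arrays against 1 WT array. A probe set's own spread then comes from the KO pair alone, with the lone WT array assumed to vary alike. Limma draws that spread towards its trend with intensity over all probe sets. Vegfa was also -0.27 without blastocyst KO replicate 2. The median control signal was itself 0.93 higher on the log2 scale on the KO than on the WT blastocyst arrays, and its part in these differences was not tested. The remaining 6 tested probe sets differed by -0.48 to 0.55.

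At the implantation site, with 1 array per genotype and thus no replicate check, 4 of the 9 probe sets were at least 2-fold apart, 2 higher and 2 lower in the KO, beside 23% of all probe sets, 6.72% higher and 16.3% lower. Ang 1438936_s_at (2388 in the KO and 345 in the WT, log2 2.79) and Vegfa (946 in the KO and 418 in the WT, log2 1.18) were the higher ones. The other Ang probe sets above control level differed by 0.67 (1438937_x_at) and by 0.00 (1450717_at, above in the KO only). Flt1 1454037_a_at was lower (18.8 in the KO and 229 in the WT, at least 1.75-fold against the KO control level), and so was Eng 1417271_a_at (192 in the KO and 391 in the WT, log2 -1.03). The other probe sets of both genes went elsewhere: Flt1 1451756_at was 0.57 and Eng 1432176_a_at 0.68 higher in the KO, while the Flt1 probe sets 1440926_at and 1419300_at were 0.94 and 0.91 lower on the log2 scale. The receptors Kdr (0.73), Tek (0.51) and Nrp1 1448943_at (0.56) were less than 2-fold higher in the KO, although Kdr was over 2-fold higher with a common median (1.15). Vegfa and the Ang probe set kept a difference over 2-fold under quantile normalization, a common median and a pseudocount of 50, whereas Eng did not keep it under these 3. Between blastocyst arrays of 1 genotype, 18.5% (KO) and 25.6% (WT) of probe sets were 2-fold apart, near the 23% between the genotypes at the implantation site. The median control signal differed by -0.61 on the log2 scale at the implantation site (KO minus WT), and its part in these differences was not tested.

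In oocytes, again with 1 array per genotype, 6 of the 9 probe sets were at least 2-fold apart, 4 higher and 2 lower in the KO, beside 37.7% of all probe sets, 24.4% higher and 13.3% lower. Without the filter 15 of the 22 were 2-fold apart, 11 higher and 4 lower, beside 50% of all, 37% higher and 13% lower. Flt1 1451756_at was higher in the KO and above control level on both arrays (1394 in the KO and 576 in the WT, log2 1.28; under 2-fold with a common median). The other higher ones, Ang 1438936_s_at (3.41), Eng 1417271_a_at (1.34) and Vegfa (1.24), were at control level on both arrays. Vegfa and Eng were under 2-fold in 3 alternatives each: a common median (0.69 for Vegfa and 0.79 for Eng), a pseudocount of 50 (0.63 and 0.94) and quantile normalization (-0.056 and 0.63). Median control signal was 1.49 higher in the KO oocyte array on the same scale. Kdr (335 in the KO and 829 in the WT, log2 -1.31) and Tek (117 in the KO and 314 in the WT, log2 -1.43) were lower in the KO, above control level in the WT only, and both stayed over 2-fold lower under each alternative. The WT signal of Tek was under the KO control level of 588, so a bound on the fold could be given for Kdr alone, at least 1.41.

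**Figure D3:**
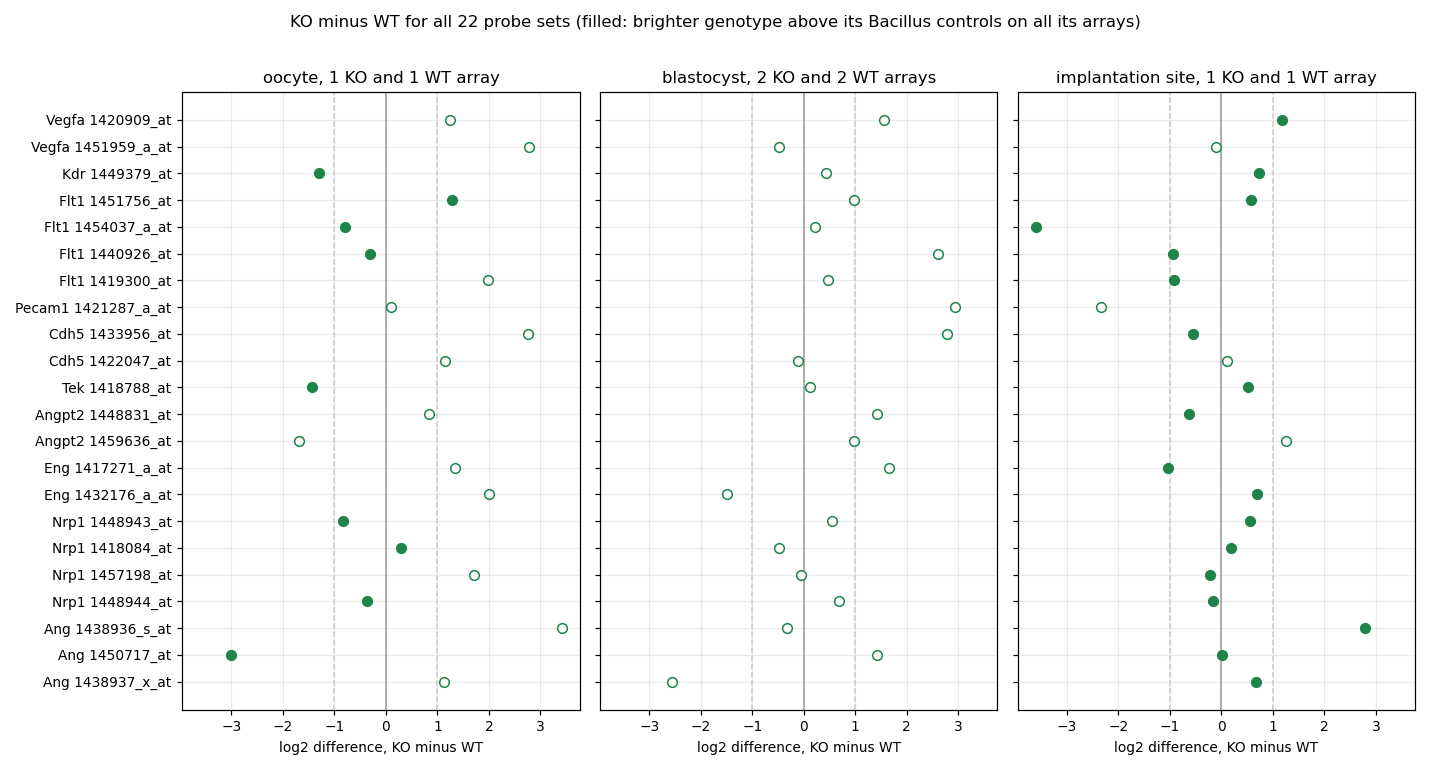
KO minus WT differences on the log2 scale for all 22 probe sets at the 3 stages, with dashed lines at 2-fold. Filled points have the brighter genotype above control level on all its arrays. No blastocyst point is filled, and the farthest filled points at the implantation site are Flt1 1454037_a_at at -3.60 and Ang 1438936_s_at at 2.79.

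A further 10 lists of related genes, chosen with earlier results of these arrays known, place the members among the rest of the vascular programme. Each of them had 0 probe sets called between KO and WT in blastocysts and in the fit over the 3 stages. Between the implantation site and the blastocyst, where 13.8% of all probe sets rose and 18.4% fell, the VEGF and placental growth factor list had 1 higher and 1 lower of 12 and the angiopoietin and Tie list 0 and 0 of 3. Ptprb, the endothelial phosphatase that restrains TIE2, was the one that rose in the VEGF list (937 in the KO and 1139 in the WT implantation site, against 280 and 311 in KO and 114 and 292 in WT blastocysts; 2.16, adjusted p = 0.0272). The endoglin and TGF beta list had 10 higher and 3 lower of 25. It was led by Tgfbr3, the co-receptor betaglycan (12029 in the KO and 12993 in the WT implantation site, 14.2 to 103 in blastocysts; 8.53, SE 0.71, adjusted p = 1.48e-05), with Smad1 (5.67), Tgfbr2 (5.54) and Smad5 (3.13), which carry the signal of these receptors.

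The endothelial surface and junction list had 6 higher and 1 lower of 25. Cav1, the coat protein of caveolae, was 6.60 higher (adjusted p = 5.33e-05), Calcrl, the adrenomedullin receptor, 6.09 (4.74e-04), and Cd93, a lectin-like protein of endothelium and myeloid cells, 4.19 (1.46e-04), while Gpihbp1, which anchors lipoprotein lipase in capillaries, fell by 3.50 (adjusted p = 0.0154). Cav1 and Calcrl are also made by other cells. The endothelial transcription factor list had 7 higher and 1 lower of 25, among them the ETS factors Erg (4.37, adjusted p = 0.00187), Elk3 (2.19) and Ets2 (2.10). Erg read 2023 on the KO and 1278 on the WT oocyte array, 164 and 22.7 in KO and 33.4 and 41.9 in WT blastocysts, and 876 on the KO and 1114 on the WT implantation site array, the same order of stages as Flt1 1451756_at and Nrp1 1418084_at. The brightest Nrp1 probe set, 1448943_at, and Flt1 1419300_at had another order, highest at the implantation site. Flt1 1454037_a_at had its lowest mean there. Erg, like Flt1 1451756_at and Nrp1 1418084_at, was above control level on both oocyte arrays. The Notch and ephrin list had 5 higher and 2 lower of 17, with Nr2f2, a regulator of vein identity that is also a decidual stroma gene, 3.52 higher (adjusted p = 5.14e-04) and Jag1, a Notch ligand, lower (-1.77, adjusted p = 0.0415).

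In the lists for the cells that wrap vessels and for low oxygen, more probe sets rose than fell. The part of uterine stroma and other cells in these signals was not tested. Mural cell markers had 4 higher and 1 lower of 11: Rgs5, a pericyte marker (12754 in the KO and 11568 in the WT implantation site, 28.3 to 212 in blastocysts; 7.13, adjusted p = 8.31e-05), Tagln (5.91) and Acta2 (2.93) of the smooth muscle cytoskeleton, and the growth factor receptor Pdgfrb (4.12). The hypoxia list had 9 higher and 5 lower of 30, with the vasodilator peptide gene Adm (5.88), Hif1a, the oxygen-regulated factor subunit (3.20), and Pdk1, which diverts pyruvate from mitochondria (2.61), higher, and Bnip3, a mitophagy gene, lower (-2.88). Inhibitors of angiogenesis had 6 higher and 1 lower of 11, among them Adamts1 (4.79), Sparc (3.69), Col18a1 (2.51), the source of endostatin, and Timp3 (2.31). The ribonuclease A list had 1 higher (Rnase4) and 2 lower (Ang2 and Rnase2a) of 6.

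Markers of decidua and uterine stroma rose at the same stage, 8 higher and 0 lower of 14 probe sets tested. Of the other marker lists, leukocyte markers had 2 higher and 1 lower of 8, red cell markers 0 called of 1, trophoblast markers 0 higher and 1 lower of 3, and epithelium markers 0 higher and 4 lower of 5. Blastocyst markers had 0 higher and 16 lower of 16. The decidual list was led by Pgr, the progesterone receptor (30636 in the KO and 27384 in the WT implantation site, 134 to 198 in blastocysts), the stromal transcription factor gene Hand2 (18803 in the KO and 15722 in the WT, 20.3 to 271 in blastocysts) and Bmp2 (13285 in the KO and 8357 in the WT, 46.7 to 125 in blastocysts). Not all of the list rose. Prl8a2 had 217 in the KO and 211 in the WT implantation site, within the 165 to 623 of blastocysts. Des had 26.6 in the KO and 356 in the WT implantation site, and 219 to 441 in blastocysts. The leukocyte list summed to 28190 in the KO and 24992 in the WT implantation site, 2890.0 to 16099.5 in blastocysts, and 3048 in the KO and 1760 in the WT oocyte array. Most of these sums at the implantation site was Csf1r, the receptor of a macrophage growth factor (19673 in the KO and 18588 in the WT implantation site, 6134 and 11937 in KO and 593 and 3881 in WT blastocysts). The direction of Tyrobp and Adgre1 differed by genotype. Among KO arrays, Tyrobp had less signal at the implantation site (704) than in blastocysts (1178 and 1842). Adgre1 was lower there too (437, against 2912 and 1087). Among WT arrays, both had more signal at the implantation site than in blastocysts. Tyrobp was at 666 against 287 and 580, and Adgre1 at 965 against 707 and 711. Ptprc, which defines leukocytes, gave 3687 at the KO and 2558 at the WT implantation site. Cd3e, Fcer1g and Aif1 of that list were at control level on all arrays. Flt1, Nrp1, Eng, Kdr and Pecam1 are known in cells outside the endothelium, and the part of stroma and leukocytes in the members' signals was not tested. Of 10 further endothelial markers 9 in the KO and 8 in the WT implantation site, 3 to 5 in blastocysts, and 1 in the KO and 3 in the WT oocyte array were above control level. Most of these 10 genes also belong to the endothelial surface list, so the lists are not separate evidence. Control levels were lower at the implantation site, and in the test against blastocysts 0 of their 10 probe sets were called, 5 differences lay above and 5 below 0, and their median was 0.09, beside -0.30 over all probe sets. Their summed signal was 4188 in the KO and 4711 in the WT implantation site and 1969 to 4156 in blastocysts. The markers went different ways. Cd34, of endothelium and blood progenitors, was above control level on the implantation site arrays alone (1769 in the KO and 1167 in the WT, 30.4 to 105 in blastocysts). Plvap, of fenestrated capillaries, had 316 at the KO and 320.4 at the WT implantation site, 623 and 951 in KO and 183 and 145 in WT blastocysts. Robo4 (173 in the KO and 276 in the WT implantation site, 145 to 654 in blastocysts) and Cldn5 (183 in the KO and 281 in the WT implantation site, 342 to 568 in blastocysts) also had their highest values in KO blastocysts. Tie1 was at control level on all 8 arrays and Icam2 was above it on 1 array.

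Between KO and WT at the implantation site, where 6.72% of all probe sets were 2-fold higher and 16.3% lower in the KO, 8 of the 10 related lists had a median below that of all probe sets (-0.13). The Notch and ephrin list (-0.09) and the mural cell list (0.14) were above it. The VEGF list had 0 higher and 6 lower of 12 at 2-fold, with the semaphorin gene Sema3a (204 in the KO and 605 in the WT), Nrp2, the neuropilin of lymphatic vessels (172 in the KO and 507 in the WT), and Flt4, the receptor VEGFR3 (159 in the KO and 379 in the WT). The endothelial surface list had 0 higher and 5 lower of 25 (median -0.41), with the apelin receptor gene Aplnr at 466 in the KO and 1529 in the WT. The 10 further endothelial marker probe sets tested, most of whose genes are in the endothelial surface list too, were all lower in the KO (median -0.62). Of them 2 were 2-fold lower. For these and for the endothelial surface list the share 2-fold lower, 20% in each, is near that of all probe sets. With a common median on every array the median of all probe sets was 0.28 in place of -0.13, and without replicates no difference at this stage has a test. The median control signal was also lower in the KO at this stage (-0.61, KO minus WT), and its part in the list medians was not tested. In blastocysts the endothelial surface list had 19 of 25 differences above 0 (KO higher, median 0.70), beside a median of -0.02 over all probe sets and the brighter KO controls given above.

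**Figure D4:**
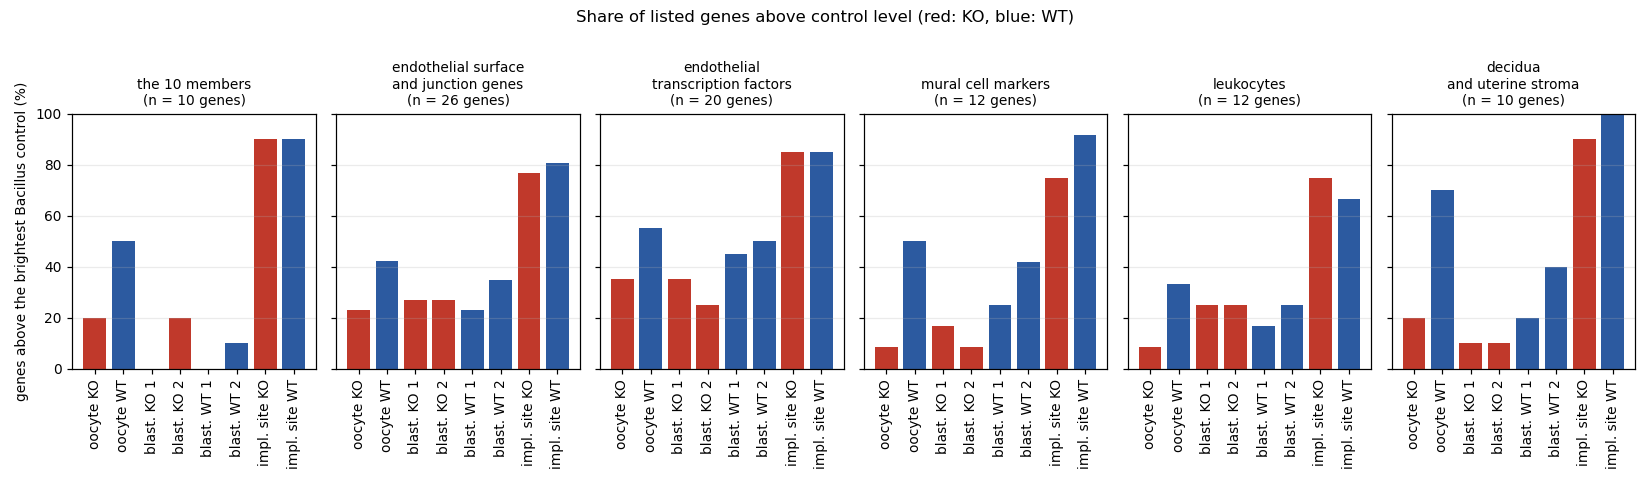
Share of the genes in 6 lists that were above the brightest Bacillus control of the array, in percent, by array (KO red, WT blue), each gene read by its probe set with the highest mean. Of the 10 members, 2 and 5 genes passed on the KO and WT oocyte arrays, 0 to 2 on the blastocyst arrays and 9 on both implantation site arrays, the stage where decidual and leukocyte markers had their highest shares too.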

How the data were processed

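The authors deposited 1 table of signal intensity for the 8 arrays, made with MAS5 per the submitters' processing notes, with no version given. The intensity is linear, and the values of each array were tested to have a 2% trimmed mean of 500. No other normalization was found. Groups follow the labels, and precision is limited by how few arrays there are. The ratio of 3' to 5' control signal of Actb was 6.68 (KO) and 33.4 (WT) in oocytes. In blastocysts it was 25.7 and 39.0 (KO) and 69.3 and 69.1 (WT), and at the implantation site 27.9 (KO) and 21.2 (WT). That of Gapdh was 2.41 (KO) and 10.1 (WT) in oocytes, and 11.2 and 11.8 (KO) and 7.27 and 7.71 (WT) in blastocysts. At the implantation site it was 7.46 (KO) and 7.21 (WT). The part of these ratios in the differences was not tested. The members, the gene lists, the markers and the tests were chosen with earlier results of these data known.

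Probe sets were named through the platform table, with genes looked up in the RefSeq table of GRCm38.p6: 34945 had 1 gene (18193 genes), 932 several and 9160 none, and 64 were controls. The log2 signal of the 19040 probe sets with 1 gene in the upper 50% by mean signal entered a fit in limma 3.58.1 under R 4.3.3 (lmFit, trended eBayes, two-sided tests, Benjamini-Hochberg adjustment over all probe sets tested, threshold 0.05). Blastocyst KO and WT were fitted on 4 arrays, and stages and the KO effect over the stages on all 8 with both terms. Stages with 1 array per genotype were described by differences of at least 2-fold, with no test.

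Control level is the brightest of 27 Bacillus control probe sets of the array, which assumes that no Bacillus RNA was added. Where every array of the dimmer group was at this level, the fold is a bound, the mean log2 signal of the brighter group against the mean log2 control level of the dimmer. A gene is represented by its probe set with the highest mean. Named genes were all members, up to 4 per list with the largest difference, the 5 genes most correlated with Cdh5 and with Kdr, and Gja1. Some defining markers were named after their values were seen.

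Alternatives tried were a common median, quantile normalization, a pseudocount of 50, no filter, the upper 30%, the mean or the representing probe set per gene, no suffix probe sets, no trend, a replicate block and leaving out each array. No label pairs KO with WT arrays by replicate number. On simulated data with 19040 probe sets, log2 changes of 1, 2 and 3 were called in 0%, 26.9% and 71.2% of cases in the blastocyst fit (6 unchanged probe sets called), and in 1.49%, 58.2% and 83.3% between implantation site and blastocyst (6 unchanged called). Only 67, 67 and 66 probe sets carried these changes, and the spread came from the blastocyst arrays. In the data 6132 were called between implantation site and blastocyst, so the simulated rates need not hold for that comparison. Figures were made in Python 3.11.15 with matplotlib 3.10.9.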

Additional observations from a re-analysis of the deposited data

How the results depend on the processing

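Between KO and WT, 0 member probe sets were called in blastocysts and over the 3 stages under every alternative run, the replicate block and each left-out array included. The block raised the count over all probe sets in blastocysts to 141, against 6 without it, and the replicate numbers share only a number: the correlation of the difference between the KO arrays with that between the WT arrays was 0.00935 over 19040 probe sets. Without the array labelled WT replicate 2 it was 361, again with 0 members. Between the implantation site and the blastocyst, 3 members were called, 5 with a common median, 5 with no filter, 1 in the upper 30%, and 1 to 4 with an array left out. Between the blastocyst and the oocyte, 4 were called, 7 with no filter, 2 in the upper 30%, 1 with the mean of the probe sets of a gene, and 3 to 5 with an array left out. Between the implantation site and the oocyte, 3 were called, 1 with the mean per gene, 1 without the trend, and 0 to 3 with an array left out. At least 2-fold apart in oocytes were 6, 15 with no filter and 2 in the upper 30%. At the implantation site they were 4, 1 in the upper 30%, 1 without suffix probe sets and 2 with the mean per gene. Filters and means per gene change how many probe sets are tested, and the cause of the other changes was not tested. Of 751 values of single probe sets under the alternatives, 709 kept their side of the threshold, 27 lost and 14 gained a call, and 1 called difference turned, Vegfa in oocytes at -0.056 under quantile normalization. A further 36 changed sign while uncalled. A common median moved the median of all probe sets to 0.06, against -0.30, between the implantation site and the blastocyst, and to -0.45, against 0.10, between KO and WT oocytes. The mean per gene gives no value for a single probe set. With the 15 older Bacillus controls, added after the data were seen, 9 and 12 member probe sets were above control level in KO and WT oocytes, 0 and 2 in KO and 1 and 5 in WT blastocysts, and 17 and 19 in the KO and WT implantation sites. No probe set of Pecam1, Cdh5 or Angpt2 was bright enough to be tested with the filter.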
